A study of Homo sapiens with 282 samples.

Results

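Doxorubicin hydrochloride at 0.101 uM was compared with the DMSO vehicle after 24 h in OCI-Ly3, an established human cell line derived from a diffuse large B cell lymphoma. The arrays were chosen by title and by signal: 3 doxorubicin and 8 DMSO arrays of 24 h carried the labels, and an array was kept where the upper quartile of its log2 values over all probe sets was 8 or more. This kept 3 of 3 doxorubicin arrays and 7 of 8 DMSO arrays, so 10 arrays of the 282 in the series carry the comparison. The cells grew in IMDM with fetal calf serum in multiwell plates, and RNA was taken from single wells. Control wells received DMSO, labelled as 1%, and the labels do not give the DMSO content of the drug wells. The other groups used below, all of OCI-Ly3 cells with no genetic change named, were doxorubicin at 0.03 uM for 24 h (3 arrays), doxorubicin at 0.101 uM for 6 h (3 arrays) with DMSO for 6 h (8 arrays), etoposide at 0.811 and 0.812 uM for 24 h (5 of 6 arrays kept), aclacinomycin A at 0.105 uM for 24 h (3 arrays) and untreated medium for 24 h (2 arrays). All arrays of doxorubicin 0.101 uM at 12 h fell below the signal limit, so 0 were kept and that time is not used.

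Doxorubicin is an anthracycline that slips between DNA bases and traps topoisomerase II on broken DNA. Cells read such breaks through the kinases ATM and ATR, which stabilise the transcription factor p53. Among its best known targets are CDKN1A, whose product p21 stops the cyclin-dependent kinases, and MDM2, whose product degrades p53 again. When those kinases stop, the DREAM repressor complex and RB hold down the genes of DNA replication and mitosis. B cell lymphoma is treated with doxorubicin in combination chemotherapy.

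Values are log2 RMA intensities as deposited. Each difference is a log2 fold change ± standard error of 3 doxorubicin against 7 DMSO arrays, estimated with limma. Its p is adjusted by Benjamini-Hochberg over the 18239 genes, and below 0.05 a gene counts as called. The labels do not say whether replicate wells came from separate cultures, so the p-values measure the spread between wells, which may be technical. For comparisons within 24 h that spread is pooled per gene over the groups of all 77 kept arrays of that time. In a bulk RNA sample, fewer cells of a kind and less RNA per cell cannot be told apart. The upper quartile was 8.18 to 8.22 on the doxorubicin arrays and 8.17 to 8.25 on the kept DMSO arrays. The ACTB 3' to 5' probe set difference, a sign of RNA quality, was 0.21 to 0.22 on the doxorubicin and 0.11 to 0.78 on the DMSO arrays. The median standard deviation of a gene among arrays was 0.0961 in doxorubicin and 0.176 in DMSO. Of 9 B cell markers, IRF4 and CD74 were among the bright genes, at 13.15, 13.12 and 13.14 and 12.59, 12.53 and 12.48 with doxorubicin, and PAX5 read 7.28, 7.25 and 7.28. MS4A1 (CD20), CD22, CD79A and CD79B, defining genes of mature B cells, were dim in both groups. MS4A1 read 4.71, 4.77 and 5.26 with doxorubicin and 4.50 to 4.96 (median 4.75) in DMSO, and CD79A read 4.94, 5.22 and 4.64 and 4.79 to 5.33 (median 4.97). The vehicle itself differed from medium: 3685 genes, 20.2%, were called between the 2 medium and the 7 DMSO arrays. Taken against medium in place of DMSO, doxorubicin was higher in 3295 genes (18.1%) and lower in 3430 (18.8%), and 5198 of these were also called against DMSO, 5133 in the same direction. The counts of named genes leave out BAD, MGA and MXI1, which are named below without values. Of 226 named genes called against DMSO, 16 were not called against medium and 5 were called in the other direction. In 8 more the log2 difference was over 1.5 times smaller against medium, and in 40 over 1.5 times larger. The values against medium are given below for the genes that lost their call, turned or became smaller, other than ACTB.

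After 24 h, 2893 genes rose (15.9% of those tested) and 3621 fell (19.9%). In 384 the rise passed 1 log2 unit (2.11%), and in 362 the fall did (1.98%). More rises than falls passed 2 log2 units, 47 (0.258%) against 18 (0.0987%). The 3 doxorubicin arrays lay above all 7 DMSO arrays for 2318 genes (12.7%) and below all of them for 3026 (16.6%). The median difference over all genes was -0.0014. These counts depend on the arrays kept. With the low arrays of 24 h included, 1107 genes were called, among them 34 of the 57 p53 targets, 20 of the 42 mitosis genes and 22 of the 44 replication genes described below. Many other lists lost a larger share of their calls. The count with all arrays of 24 h is given with each list whose calls are counted. Each list count against DMSO is to be read beside the shares over all genes, 15.9% up and 19.9% down. With all arrays of 24 h the medians of the 42 lists moved by at most 0.078. They shifted further with medium as the control, for the NF-kappaB list from 0.234 to 0.602. For nucleotide and folate synthesis the median went from -0.828 to -1.175.

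The highest rise was that of GDF15, a stress cytokine of the transforming growth factor beta superfamily and a p53 target. It read 9.40, 9.42 and 9.36 in the doxorubicin arrays and 3.62 to 4.71 (median 3.82) in the DMSO arrays. All doxorubicin arrays were high and far from the DMSO range, a difference of 5.47 ± 0.15 (adjusted p = 1.66e-41). In DMSO its mean was lower than in all but 8.2% of genes, a range where array values can understate a change. SULF2, an extracellular sulfatase that edits heparan sulfate, read 10.80, 10.84 and 10.80 against 6.21 to 6.93 (median 6.51), a rise of 4.28 ± 0.14 (adjusted p = 5.15e-38). NECTIN4, a cell adhesion protein, read 9.89, 9.87 and 9.76 against 5.70 to 6.57 (median 6.18), a rise of 3.72 ± 0.15 (adjusted p = 1.07e-32). None of these ranges overlapped. TP53I3, a quinone oxidoreductase gene switched on by p53, read 12.09, 12.18 and 12.0 against 8.57 to 8.92 (median 8.68) and rose by 3.36 ± 0.08 (adjusted p = 8.83e-47).

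A cluster of skin genes stood among the largest rises. Late cornified envelope and small proline-rich proteins form the cross-linked shell of dead keratinocytes. LCE1C read 13.15, 13.24 and 13.08 in doxorubicin and 7.54 to 8.05 (median 7.90) in DMSO, a rise of 5.28 ± 0.12 (adjusted p = 5.29e-46). LCE1F read 10.14, 10.08 and 10.17 against 5.23 to 6.24 (median 5.67), and SPRR2D read 10.24, 10.21 and 10.11 against 6.32 to 7.65 (median 6.76). Their rises were 4.45 ± 0.19 and 3.31 ± 0.17 (the second 2.06 against medium), and in each gene the doxorubicin arrays were all above the DMSO arrays. Of 27 measured cornified envelope genes, 9 rose, 1 fell and 17 were not called, and the list median was 0.21. With all arrays, 7 rose and 1 fell. The 9 were all 6 measured LCE1 genes and 3 SPRR2 genes. LCE1B rose by 3.15 ± 0.20, LCE1E by 1.93 ± 0.17, LCE1D by 1.79 ± 0.14 and LCE1A by 1.29 ± 0.12, and SPRR2A and SPRR2E by 0.66 ± 0.16 and 0.47 ± 0.13. The sequences of the LCE1 genes are so alike that a probe set of one can read another, so the members are not independent. LORICRIN, the main protein of the same shell, went the other way, from 9.33 to 9.77 (median 9.57) in DMSO to 8.90, 8.87 and 8.98, a fall of 0.67 ± 0.07 (adjusted p = 6.32e-13). Epithelial markers were checked beside them, and 1 of 9 rose: KRT14, from 4.20 to 4.80 (median 4.44) to 5.16, 5.12 and 5.07. With all arrays, 0 of the 9 epithelial markers were called. KRT5 and EPCAM, which mark basal and other epithelia, read 4.44, 4.45 and 4.98 and 3.84, 4.02 and 3.67 with doxorubicin. The mean level of the 9 was 4.76 to 4.88 in doxorubicin and 4.59 to 4.86 in DMSO, and their part in the result was not tested.

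Other large rises were of mixed function. BLNK, the adaptor that couples the B cell receptor to phospholipase C gamma, read 7.60, 7.83 and 7.78 against 3.88 to 4.49 (median 4.22), a rise of 3.55 ± 0.14. TRIM67, a ubiquitin ligase gene mostly known from neurons, rose by 3.58 ± 0.16 and FHL2, a LIM domain cofactor, by 3.36 ± 0.13. PODXL, a sialomucin, rose by 3.17 ± 0.14, ITM2A by 2.92 ± 0.11, the cytokine LIF by 2.80 ± 0.16 and RASL11A by 2.61 ± 0.13, which was 1.34 against medium. STOX2 rose by 2.61 ± 0.18 and SYTL1 by 2.61 ± 0.12. SDC1, the plasma cell marker syndecan-1, rose by 2.71 ± 0.12 against DMSO. The medium arrays of SDC1 read 8.24 and 8.66 against 6.51 to 7.28 (median 6.88) in DMSO and 9.62, 9.66 and 9.57 in doxorubicin, so its difference from medium was 1.17.

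**Figure D1:**
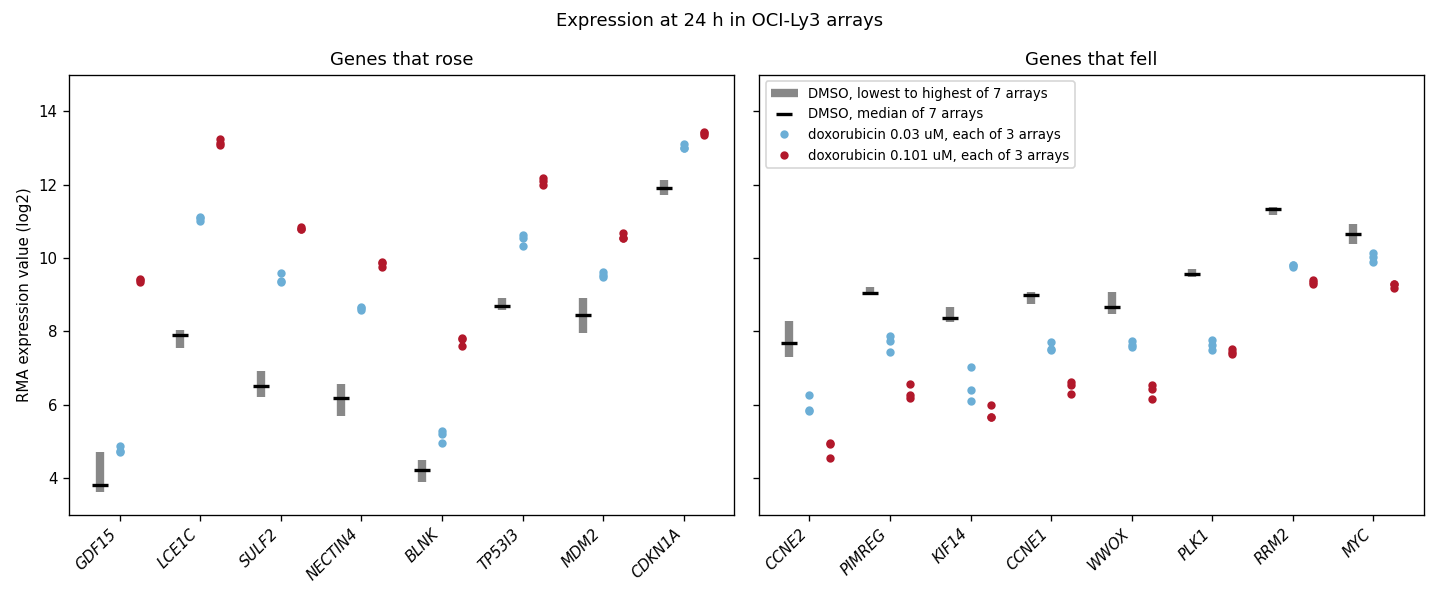
Log2 RMA values at 24 h for 8 genes that rose (left) and 8 that fell (right). Grey bars run from the lowest to the highest of 7 DMSO arrays with the median as a black line, and points are single arrays of doxorubicin at 0.03 uM (blue) and 0.101 uM (red). Every 0.101 uM array lies outside the DMSO range of its gene. GDF15 stands near 4.7 to 4.9 at 0.03 uM and above 9.3 at 0.101 uM.

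The p53 targets were split into 4 lists by role. In the feedback and arrest list, 12 of 15 measured genes rose and 1 fell, with a median of 1.26 against -0.0014 over all genes. MDM2 read 10.56, 10.68 and 10.54 in doxorubicin and 7.95 to 8.90 (median 8.45) in DMSO, a rise of 2.20 ± 0.13 (adjusted p = 1.91e-23). CDKN1A was already bright in DMSO, at 11.72 to 12.12 (median 11.90), and read 13.41, 13.36 and 13.44 with the drug, a rise of 1.50 ± 0.05 (adjusted p = 1.15e-38). Both genes read higher in every doxorubicin array than in any DMSO array. TP53INP1, which promotes autophagy and death, rose by 2.51 ± 0.13, PHLDA3, an inhibitor of AKT, by 2.08 ± 0.07 and the arrest gene GADD45A by 2.02 ± 0.06. PPM1D, the phosphatase WIP1 that switches the damage signal off again, rose by 1.58 ± 0.08. The exception was MDM4, a partner of MDM2 in holding p53 down, which went from 8.46 to 8.64 (median 8.58) to 8.12, 8.10 and 8.10, a fall of 0.47 ± 0.10 (adjusted p = 0.000138).

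Among the p53 targets of apoptosis, 12 of 16 rose and 0 fell, with a median of 1.05. The death receptors for TRAIL rose: TNFRSF10A from 6.04 to 6.70 (median 6.35) to 8.50, 8.31 and 8.29 and TNFRSF10B from 10.38 to 10.51 (median 10.45) to 12.02, 12.04 and 11.90. Their differences were 1.95 ± 0.15 and 1.53 ± 0.06, and neither overlapped DMSO. FAS, the receptor for the FAS ligand, rose by 1.32 ± 0.10, the nuclease AEN by 1.69 ± 0.08 and PIDD1, a scaffold for caspase-2, by 1.53 ± 0.11. The 4 that were not called were TNFRSF10C, SPATA18, TP53AIP1 and CASP10.

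The repair and metabolism list held 15 risers and 0 fallers among 17 measured genes, and its median of 1.40 was the highest of all 42 lists. SESN1 and SESN2, which restrain mTORC1, read 10.46, 10.51 and 10.46 and 11.34, 11.19 and 11.12 with doxorubicin. In DMSO SESN1 read 7.78 to 8.16 (median 7.94) and SESN2 8.95 to 9.47 (median 9.30), and the rises were 2.51 ± 0.09 and 1.94 ± 0.07. RRM2B, the p53-driven ribonucleotide reductase subunit, rose by 2.44 ± 0.12, the translesion polymerase POLH by 1.89 ± 0.08, ANKRA2 by 1.85 ± 0.11 and the damage sensor DDB2 by 1.76 ± 0.06. Of 9 targets that are secreted or at the surface, 6 rose and 0 fell. Besides the 3 largest given above these were NINJ1, which ruptures the membrane of dying cells, at 1.40 ± 0.07, KITLG at 1.13 ± 0.07 and the tetraspanin CD82 at 0.99 ± 0.07.

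The counts of the 4 p53 lists were the same without the DMSO arrays with the most hybridisation control (replicates 5 and 6). Taken against medium they were 12 and 1, 10 and 0, 15 and 0, and 6 and 0 for rises and falls. Some of these genes differed between medium and DMSO: PLK3 by -1.04, TP53INP1 by -0.66 and ZMAT3 by -0.57. Others were higher in medium, NECTIN4 by 0.76, DDB2 by 0.51 and KITLG by 0.38, and their rises against medium were 2.96, 1.26 and 0.75. With all arrays of 24 h the rises in the 4 lists were 9, 8, 12 and 5, with 0 falls.

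In the BCL2 family, 8 of 17 genes rose and 2 fell, with a median of 0.12. The pro-apoptotic members BBC3 (PUMA), BAK1, BAX, BCL2L11 (BIM) and PMAIP1 (NOXA) rose by 1.38 ± 0.07, 1.23 ± 0.14, 0.97 ± 0.12, 0.79 ± 0.07 and 0.60 ± 0.08. BBC3 read 10.59, 10.32 and 10.51 against 9.01 to 9.19 (median 9.08) in DMSO, with no overlap. Among the guardians, BCL2L1 (BCL-XL) rose by 0.53 ± 0.07 and MCL1 by 0.12 ± 0.04, while BCL2 differed by 0.05 ± 0.07 and was not called. BCL2A1, a guardian driven by NF-kappaB, went from 8.17 to 8.48 (median 8.37) to 7.33, 7.26 and 7.40, a fall of 1.02 ± 0.10 (adjusted p = 2.25e-14). The other fall was in BAD, a pro-apoptotic member, whose value is not given here. BCL2A1 was also lower in medium than in DMSO, by 0.91 ± 0.11, and BCL2L11 by 1.69 ± 0.08. Against medium neither BCL2A1, at -0.11, nor PMAIP1, at 0.05, was called. With all arrays, 1 gene of the family rose and 0 fell.

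**Figure D2:**
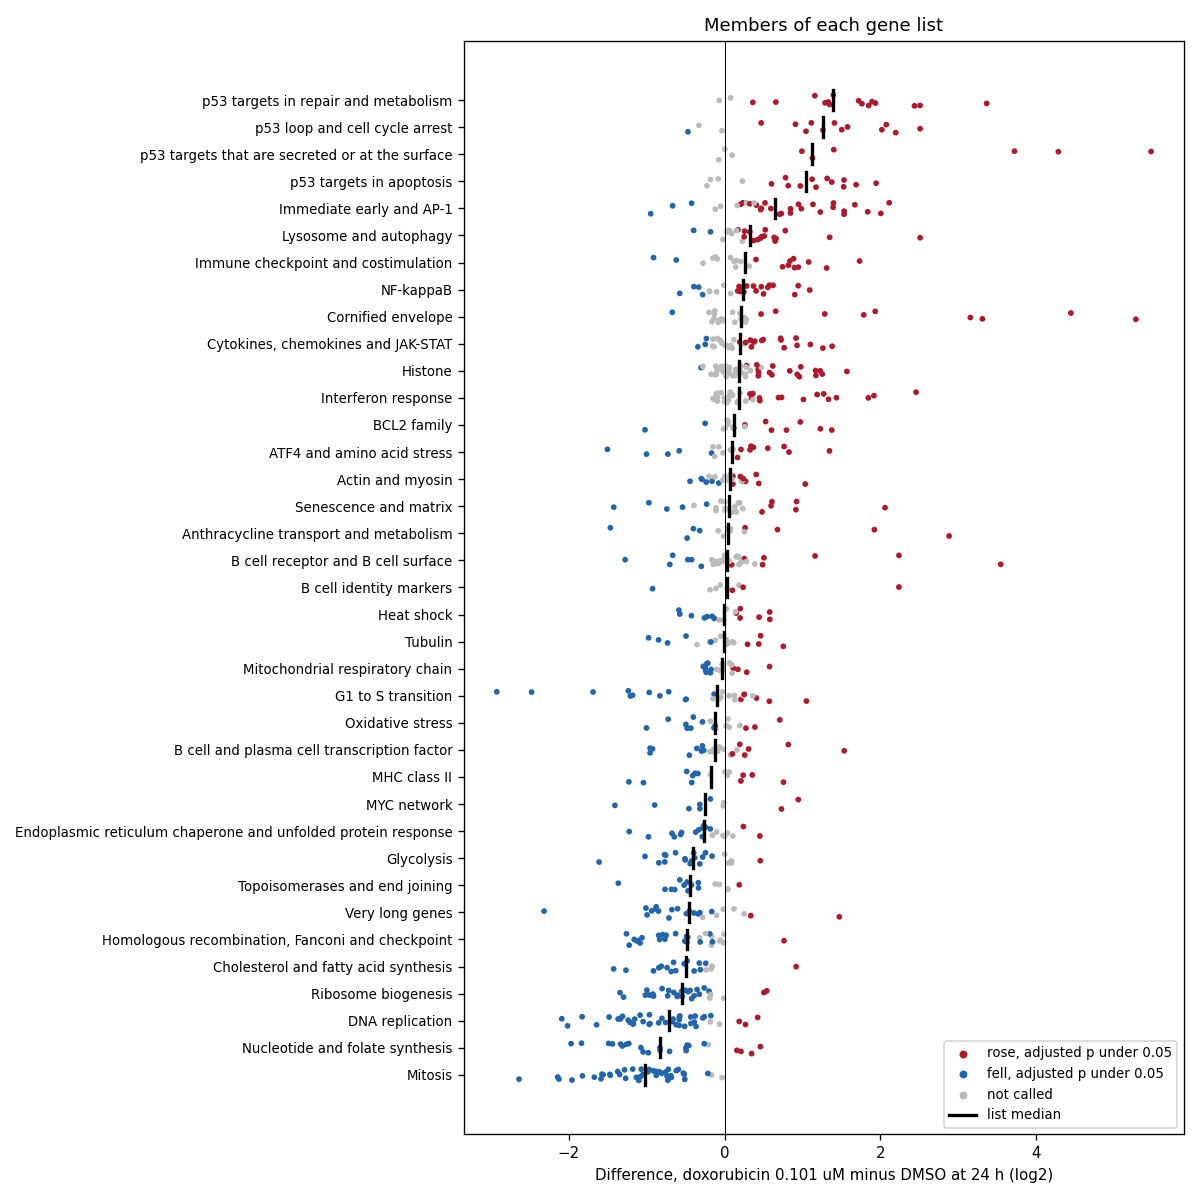
Each point is 1 gene, placed by its log2 difference between doxorubicin 0.101 uM and DMSO at 24 h, in 37 gene lists sorted by their median (black bar). Red genes rose, blue genes fell and grey genes were not called. The 4 p53 lists lie at the top, with medians of 1.05 to 1.40, and mitosis lies at the bottom with -1.01.

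The largest falls were in genes of the cell cycle. CCNE2, the cyclin E2 that drives entry into S phase, read 4.92, 4.96 and 4.55 with doxorubicin and 7.29 to 8.29 (median 7.67) in DMSO, a fall of 2.92 ± 0.18 or 7.58-fold (adjusted p = 7.77e-23). CCNE1 fell by 2.48 ± 0.11, from 8.74 to 9.08 (median 9.0) to 6.53, 6.62 and 6.28. PIMREG, a protein of the mitotic cell, fell by 2.75 ± 0.09, from 8.99 to 9.22 (median 9.06) to 6.27, 6.56 and 6.18. In all 3 genes the drug arrays were at least 2 log2 units under the lowest DMSO array. TRIP13, the ATPase that takes the mitotic checkpoint complex apart, fell by 2.48 ± 0.09, and SPC25, a kinetochore subunit, by 2.40 ± 0.10. The base excision glycosylase UNG fell by 2.29 ± 0.11 and FAM111B by 2.31 ± 0.14. Falls outside the cell cycle included TNFRSF8 (CD30) by 2.25 ± 0.12, the sialyltransferase ST8SIA4 by 2.22 ± 0.13, P2RY8, a receptor that confines germinal centre B cells, by 2.14 ± 0.15, PLCXD1 by 2.04 ± 0.13, IMPA2 by 2.01 ± 0.11 and GSAP by 1.99 ± 0.16. For P2RY8 and GSAP the medium arrays lay 1.54 ± 0.18 and 1.54 ± 0.18 above DMSO.

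Of 42 mitosis genes, 40 fell and 0 rose, with a median of -1.01. The kinesin KIF14 of cytokinesis read 5.98, 5.66 and 5.67 against 8.25 to 8.67 (median 8.37), a fall of 2.64 ± 0.12 (adjusted p = 5.24e-30). PLK1, the master mitotic kinase, read 7.52, 7.44 and 7.37 against 9.47 to 9.71 (median 9.56), a fall of 2.14 ± 0.09 (adjusted p = 1.15e-32). CCNA2, cyclin A, read 7.97, 8.12 and 7.74 against 9.87 to 10.18 (median 10.09), a fall of 2.13 ± 0.08. All these arrays were low and apart from DMSO. ANLN, BUB1 and CENPF fell by 1.96 ± 0.11, 1.82 ± 0.11 and 1.67 ± 0.08, and CCNB1, cyclin B, by 1.56 ± 0.06. The 2 genes not called were KIF2C, at -0.03 ± 0.06, and NDC80, at -0.17 ± 0.09. The count was 40 and 0 as well without DMSO replicates 5 and 6 and against medium.

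The G1 to S list was mixed. Of 26 genes, 12 fell and 5 rose, with a median of -0.10. After the cyclins E, SKP2, which marks cell cycle inhibitors for destruction, fell by 1.69 ± 0.17, E2F5 by 1.23 ± 0.11, the phosphatase CDC25A by 1.21 ± 0.07 and E2F1 by 1.18 ± 0.12. The inhibitors CDKN2B and CDKN1C rose by 1.05 ± 0.16 and 0.58 ± 0.16, and E2F7, a repressor that p53 induces, by 0.41 ± 0.06. RBL2, the p130 subunit of DREAM, rose by 0.25 ± 0.09 and CCND3 by 0.21 ± 0.08, and both of those overlapped DMSO. Against medium RBL2 was 0.19 and not called. With all arrays, 6 fell and 1 rose.

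Of 44 DNA replication genes, 39 fell and 3 rose, with a median of -0.72. GINS2, a part of the replicative helicase, read 7.26, 7.22 and 7.24 against 9.01 to 9.56 (median 9.35), a fall of 2.09 ± 0.10. POLD1, the catalytic subunit of polymerase delta, read 6.46, 6.40 and 6.19 against 8.06 to 8.76 (median 8.26), a fall of 2.01 ± 0.11. The helicase genes CDC45, MCM6, MCM4 and MCM3 fell by 1.83 ± 0.11, 1.64 ± 0.09, 1.48 ± 0.12 and 1.37 ± 0.07. Among the risers was PCNA, the sliding clamp and a p53 target, from 12.06 to 12.25 (median 12.14) to 12.44, 12.46 and 12.37, with no overlap and a rise of 0.27 ± 0.05. The others were GINS4 at 0.43 ± 0.06 and the ligase LIG1 at 0.19 ± 0.07. The arrays of LIG1 overlapped DMSO. Against medium the value of LIG1 was -0.04.

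Nucleotide and folate synthesis followed with 19 falls and 4 rises of 24 genes and a median of -0.83. RRM2, the S phase subunit of ribonucleotide reductase, read 9.35, 9.40 and 9.28 against 11.17 to 11.40 (median 11.33), a fall of 1.97 ± 0.06, while its p53-driven partner RRM2B rose. The purine enzymes PAICS and PFAS fell by 1.84 ± 0.05 and 1.49 ± 0.06. TYMS, thymidylate synthase, went the other way, from 12.01 to 12.33 (median 12.22) to 12.68, 12.64 and 12.67, a rise of 0.46 ± 0.04 (adjusted p = 2.11e-14). CTPS1 rose by 0.16 ± 0.05. Against medium TYMS was 0.19 higher. With all arrays, 8 genes of the list fell and 1 rose.

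Genes of homologous recombination, the Fanconi pathway and the checkpoints counted 20 falls and 1 rise of 30, with a median of -0.48. RAD54L, CHEK2, BLM and FANCI fell by 1.26 ± 0.12, 1.22 ± 0.14, 1.16 ± 0.09 and 1.13 ± 0.07. RAD51C was the riser, from 10.08 to 10.32 (median 10.25) to 11.02, 11.07 and 10.86, at 0.76 ± 0.06, or 0.41 against medium. With all arrays, 7 fell and 0 rose. Among topoisomerases and end joining genes, 11 of 16 fell and 1 rose, with a median of -0.45. With all arrays 0 of the 16 were called. TOP2A, the drug's main target in dividing cells, read 11.36, 11.26 and 11.28 against 11.36 to 11.97 (median 11.83). Its arrays overlapped, and it fell by 0.42 ± 0.11 (adjusted p = 0.00132). TOP2B, the form of resting cells, differed by -0.12 ± 0.06 (adjusted p = 0.158) and was not called. TOP1 rose by 0.19 ± 0.05 and overlapped DMSO, and at 0.15 it was not called against medium. TDP1, which clears topoisomerase adducts from DNA ends, fell by 1.36 ± 0.07, from 9.56 to 9.76 (median 9.71) to 8.31, 8.41 and 8.28, and the end joining kinase PRKDC by 0.76 ± 0.11.

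The promoters of 3 genes that fell are shown for the motifs they hold, and those of CDKN1A and GDF15 as genes that rose. MCM10, a replication initiation gene, fell by 0.57 ± 0.08. Sequences are the 250 bases before the start site from RefSeq (GRCh38.p14), 5' to 3' on the strand of the gene, all on the plus strand. Capitals mark matches on either strand. The CHR element, where the DREAM and MuvB complexes bind, was searched as TTTGAA and also as TTCGAA. The CCAAT box, bound by NF-Y, was searched as its own letters. E2F cores were searched as TTCCCGC, likewise as TTGGCGC, likewise as TTCGCGC and likewise as TTGCCGC. No motif overlaps another in these stretches. A match is a description of the letters and not a binding site. PLK1 is at chr16:23678639-23678888, CCNB1 at chr5:69166900-69167149, MCM10 at chr10:13161308-13161557, CDKN1A at chr6:36678464-36678713 and GDF15 at chr19:18385908-18386157.
PLK1: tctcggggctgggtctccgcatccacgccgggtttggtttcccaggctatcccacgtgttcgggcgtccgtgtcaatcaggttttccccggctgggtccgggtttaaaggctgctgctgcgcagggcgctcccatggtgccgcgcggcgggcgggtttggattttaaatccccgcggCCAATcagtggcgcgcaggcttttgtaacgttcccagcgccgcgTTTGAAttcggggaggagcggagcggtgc
CCNB1: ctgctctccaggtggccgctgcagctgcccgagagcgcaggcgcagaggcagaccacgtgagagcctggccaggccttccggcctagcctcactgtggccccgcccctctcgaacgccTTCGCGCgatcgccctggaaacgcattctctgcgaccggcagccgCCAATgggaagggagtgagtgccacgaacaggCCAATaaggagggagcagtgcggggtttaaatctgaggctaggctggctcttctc
MCM10: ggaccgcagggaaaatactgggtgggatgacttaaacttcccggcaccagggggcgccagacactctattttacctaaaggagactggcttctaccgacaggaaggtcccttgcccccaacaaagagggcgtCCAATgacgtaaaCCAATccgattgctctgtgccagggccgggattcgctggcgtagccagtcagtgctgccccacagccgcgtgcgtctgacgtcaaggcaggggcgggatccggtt
CDKN1A: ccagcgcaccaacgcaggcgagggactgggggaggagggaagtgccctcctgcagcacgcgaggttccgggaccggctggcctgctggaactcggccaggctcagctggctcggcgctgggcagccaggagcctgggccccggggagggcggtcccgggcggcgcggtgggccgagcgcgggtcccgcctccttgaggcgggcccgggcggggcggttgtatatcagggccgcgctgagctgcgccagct
GDF15: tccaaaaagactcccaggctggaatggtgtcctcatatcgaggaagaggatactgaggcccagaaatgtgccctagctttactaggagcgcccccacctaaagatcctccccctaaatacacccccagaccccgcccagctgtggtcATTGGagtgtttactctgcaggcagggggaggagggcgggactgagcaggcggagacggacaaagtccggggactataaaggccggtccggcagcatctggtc
The PLK1 stretch holds a CCAAT box that begins at -73 and a CHR element that begins at -29, counted from the start site. That of CCNB1 has 2 CCAAT boxes and 1 E2F core, MCM10 has 2 CCAAT boxes, and CDKN1A has none of the motifs. GDF15 has 1 CCAAT box on the minus strand. In windows of 300 bases (250 before to 50 after the start), 26 of 35 mitosis genes with a promoter in the table held a CHR element (74.3%), against 13.6% of 14484 genes tested and 16.6% of all 27305 promoters. Replication genes held it in 1 of 37 (2.7%). E2F cores were in 27 of 37 replication genes (73.0%), 10 of 35 mitosis genes (28.6%), 17.5% of genes tested and 13.1% of all promoters. CCAAT boxes were in 77.1% of mitosis and 62.2% of replication genes, against 36.4% of genes tested and 35.7% of all promoters. Among the 292 genes with a promoter that fell by over 1 log2 unit the shares were 20.2% for CHR, 29.8% for E2F and 44.2% for CCAAT. Among the 309 that rose by over 1 they were 14.2%, 16.8% and 36.9%. The p53 response element, searched by its consensus of paired half-sites, was in 3 of 14484 windows and in 1 of 46 genes of the p53 lists. No match says only that these letters are not in this window.

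**Figure D3:**
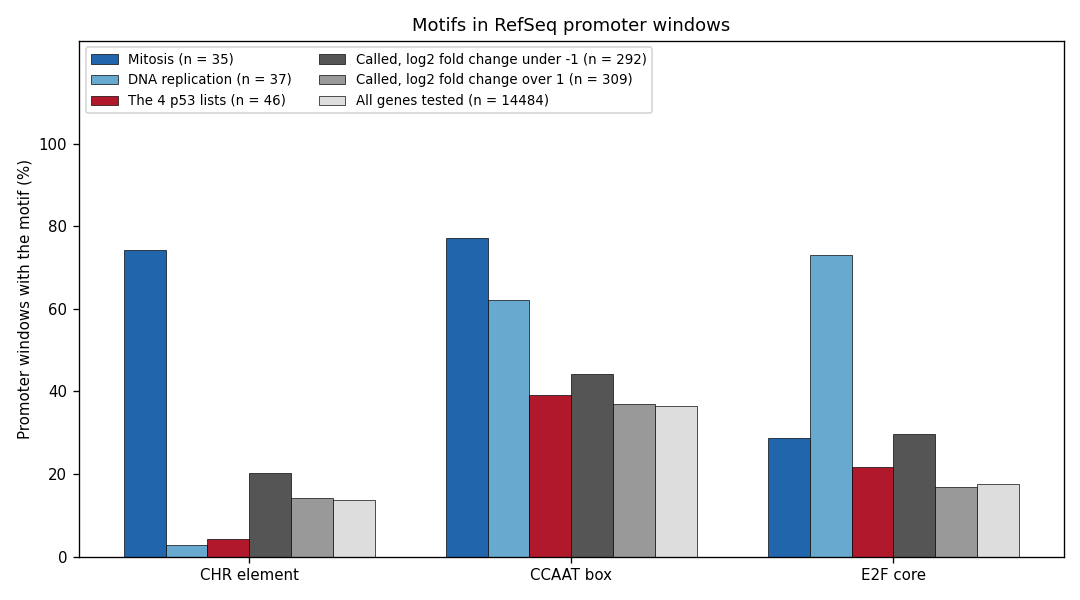
Share of RefSeq promoter windows of 300 bases that hold each motif, for genes of the mitosis, DNA replication and p53 lists, called genes past 1 log2 unit in either direction, and all genes tested. The CHR element is in 74.3% of mitosis and 2.7% of replication genes, and E2F cores are in 28.6% and 73.0%.

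Doxorubicin at 0.101 uM was tested directly against 0.03 uM at 24 h, 3 arrays each, in a contrast that uses no DMSO array. The higher concentration was above the lower in 1173 genes (6.43%) and below it in 1787 (9.8%). With all arrays of 24 h in the model 51 genes were called, 42 higher and 9 lower, so most calls below rest on the arrays kept.

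GDF15 had the largest difference upward between the concentrations. It read 4.71, 4.73 and 4.86 at 0.03 uM and 9.40, 9.42 and 9.36 at 0.101 uM, a difference of 4.63 ± 0.18 (adjusted p = 7.38e-32), and the lowest array at 0.03 uM equalled the highest DMSO array. Against DMSO, 0.03 uM gave 0.85 ± 0.15, which was called. PODXL read 7.72, 7.70 and 7.80 at 0.03 uM, inside the DMSO range of 7.37 to 7.90 (median 7.50), and 10.71, 10.79 and 10.74 at 0.101 uM. The peroxidasin gene PXDN read 4.51, 4.73 and 4.58 and then 7.03, 6.71 and 7.01, and the arginase ARG2 5.95, 5.83 and 5.74 and then 8.21, 7.95 and 8.02. ARG2 was 1.85 ± 0.15 above DMSO and 0.78 above medium. Differences between concentrations were 3.01 ± 0.17, 2.31 ± 0.14 and 2.22 ± 0.18, and at 0.03 uM none of these 3 was among the genes called against DMSO (11.4% higher, 12.1% lower). LCE1F, BLNK, TRIM67 and LCE1B followed with 3.62 ± 0.22, 2.59 ± 0.17, 2.50 ± 0.19 and 2.29 ± 0.24. CDKN1A, in contrast, read 12.99, 13.01 and 13.10 at 0.03 uM and was 0.37 ± 0.06 higher at 0.101 uM. In the p53 lists 8 of 15 feedback and arrest genes, 10 of 16 apoptosis genes, 13 of 17 repair and metabolism genes and 6 of 9 secreted or surface genes were higher at 0.101 uM, and 0 were lower. With all arrays these counts were 0, 0, 1 and 1. The medians of these lists between concentrations were 0.39, 0.46, 0.62 and 0.59, against -0.017 over all genes. ZMAT3 and TNFRSF10D differed by 0.07 ± 0.08 and 0.14 ± 0.08 between concentrations and were not called.

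The largest differences in the other direction were in ST8SIA4 at -1.57 ± 0.15, GSAP at -1.51 ± 0.19, TRIP13 at -1.44 ± 0.10, PIMREG at -1.34 ± 0.10, WWOX at -1.27 ± 0.12, POSTN at -1.24 ± 0.11, LHFPL3 at -1.18 ± 0.14 and CCNE2 at -1.18 ± 0.21. POSTN, the matrix protein periostin, read 8.20, 8.39 and 8.43 at 0.03 uM, close to the DMSO range of 8.26 to 8.69 (median 8.39), and 7.20, 6.96 and 7.14 at 0.101 uM.

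Mitosis genes did not follow one order. Of 42, 5 were lower at 0.101 than at 0.03 uM and 19 were higher, with a median of 0.23. Against DMSO, 41 had fallen at 0.03 uM with a median of -1.33. KIF20A, a kinesin of cytokinesis, read 8.48 to 8.79 (median 8.67) in DMSO, 6.38, 6.45 and 6.81 at 0.03 uM and 7.98, 7.97 and 7.80 at 0.101 uM. The lower concentration was the low one, with a difference of 1.37 ± 0.11 (adjusted p = 4.2e-16). MKI67, the proliferation marker Ki-67, read 9.59 to 9.84 (median 9.64), 8.01, 8.05 and 7.91 and 9.15, 9.16 and 9.11 in the same order, a difference of 1.15 ± 0.08 (adjusted p = 1.08e-19). KIF2C read 9.91 to 10.14 (median 10.04), 8.77, 8.87 and 8.86 and 9.94, 10.06 and 10.0, and NDC80 8.73 to 9.23 (median 9.06), 7.65, 7.59 and 7.77 and 9.05, 8.85 and 8.68. For both, the 0.101 uM arrays overlapped DMSO while the 0.03 uM arrays lay below, and the differences between concentrations were 1.17 ± 0.07 and 1.19 ± 0.11. CENPE, DLGAP5, NEK2, TPX2 and HMMR differed by 0.89 ± 0.09, 0.84 ± 0.09, 0.74 ± 0.15, 0.71 ± 0.08 and 0.62 ± 0.08. The 5 that were lower at 0.101 uM were KIF14 by 0.74 ± 0.14, BUB1 by 0.49 ± 0.13, CCNA2 by 0.41 ± 0.10, ANLN by 0.36 ± 0.13 and CCNB1 by 0.29 ± 0.08. PLK1 and CENPF differed by -0.18 ± 0.10 and 0.04 ± 0.09 and were not called. Leaving out each of these 6 arrays in turn gave 14 to 18 genes higher and 3 to 6 lower. The calls depend on the pooled spread: with the low-signal arrays of 24 h in the model the same differences stood, but 0 of the 42 were called in either direction.

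Replication genes split too, with 13 of 44 higher and 9 lower at 0.101 uM. TICRR, GMNN and ORC1, which act in licensing and firing of origins, were higher by 0.87 ± 0.13, 0.62 ± 0.05 and 0.60 ± 0.13, and MCM10 by 0.54 ± 0.09. GMNN, the licensing inhibitor geminin, read 10.91 to 11.10 (median 10.98) in DMSO, 10.13, 10.22 and 10.21 at 0.03 uM and 10.81, 10.81 and 10.81 at 0.101 uM. POLD1 and CDC45 were lower by 0.78 ± 0.13 and 0.59 ± 0.13. Histone genes were higher at 0.101 uM in 15 of 52 and lower in 0. With all arrays of 24 h in the model, 0 of the 44 replication genes and 0 of the 52 histone genes were called. TICRR was -0.43 ± 0.11 from DMSO and, not called, -0.30 from medium.

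**Figure D4:**
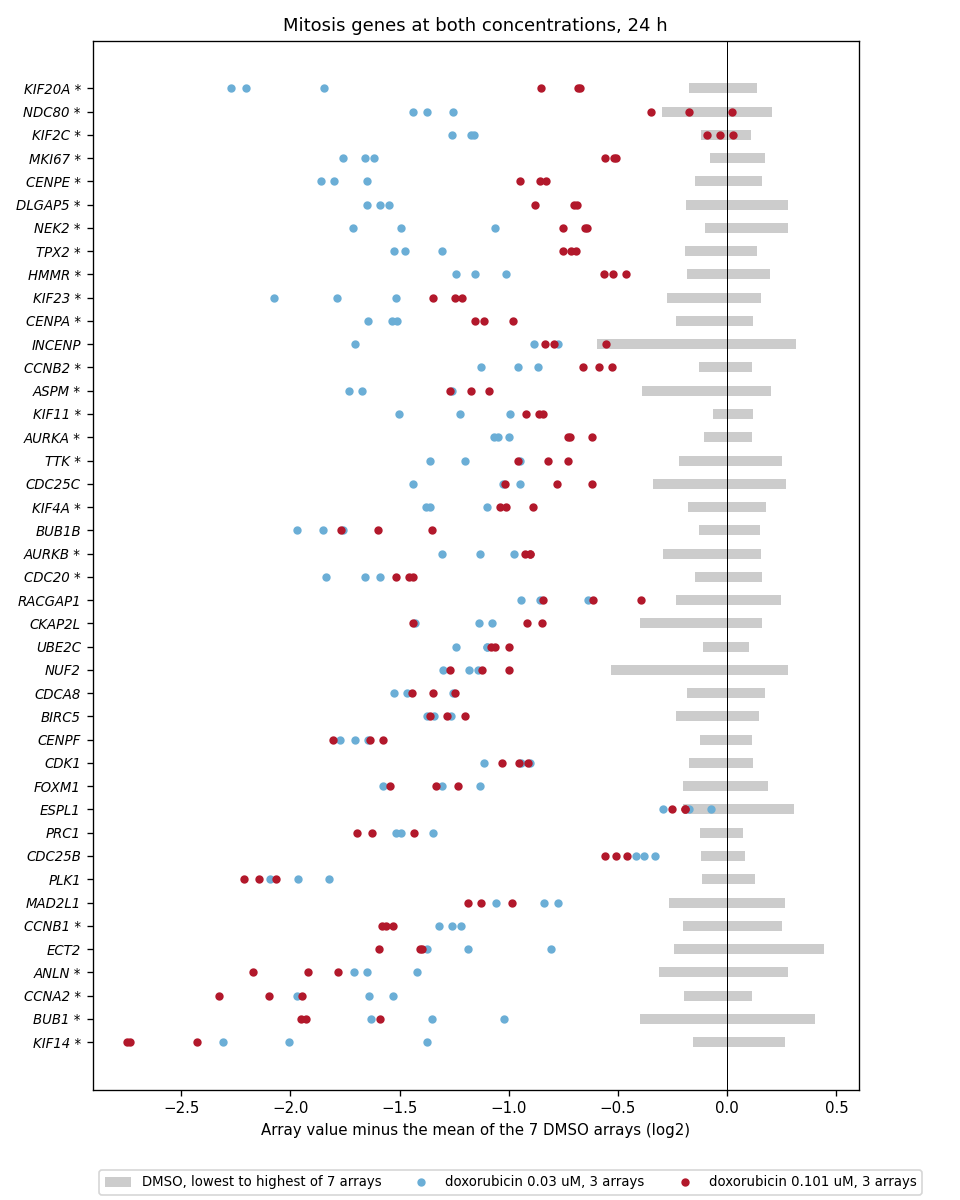
Each row is 1 of 42 mitosis genes, sorted by the difference between concentrations, and an asterisk marks a called difference. Points are single arrays at 0.03 uM (blue) and 0.101 uM (red) as log2 distance from the DMSO mean, and grey bars span the 7 DMSO arrays. In the upper rows, from KIF20A down, most red points lie closer to DMSO than blue ones, and in the lowest rows, to KIF14, they lie further away.

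The same concentration was compared between 6 and 24 h as a difference of differences, each time against its own DMSO arrays. At 6 h, 621 genes rose (3.4%) and 682 fell (3.74%). The effect was higher at 24 h than at 6 h in 2005 genes (11.0%) and lower in 2470 (13.5%). With all arrays of both times, 259 were higher and 239 lower.

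GDF15 was late. At 6 h it read 3.84, 4.15 and 3.83 with doxorubicin and 3.65 to 4.03 (median 3.73) in DMSO, with overlap and a difference of 0.15 ± 0.09, and the effect then grew by 5.32 ± 0.17 (adjusted p = 1.9e-59). LCE1F, LCE1C, SPRR2D, BLNK, TRIM67, LCE1B and SULF2 grew by 4.19 ± 0.21, 3.73 ± 0.16, 3.30 ± 0.20, 3.27 ± 0.17, 2.91 ± 0.21, 2.71 ± 0.22 and 2.69 ± 0.17. CDKN1A was early. It read 13.01, 12.97 and 13.04 at 6 h against 11.78 to 11.96 (median 11.94) in DMSO, already 1.11 ± 0.04 higher, and grew by 0.40 ± 0.06. TNFRSF10B and the repair gene XPC were 1.23 ± 0.05 and 1.0 ± 0.06 higher at 6 h and grew by 0.30 ± 0.07 and 0.29 ± 0.08. TNFRSF10D, a decoy receptor for TRAIL, had a larger effect at 6 h (1.04 ± 0.07) than at 24 h (0.78 ± 0.07), a difference of -0.26 ± 0.10 (adjusted p = 0.0322).

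Most mitosis genes were already low at 6 h, and most replication genes were not. Of 42 mitosis genes, 38 were already down at 6 h with a median of -0.62, and 24 had a lower effect at 24 h, 4 a higher one and 14 no called difference. PLK1 read 8.11, 8.17 and 8.41 at 6 h against 9.69 to 9.95 (median 9.74) in DMSO, a fall of 1.55 ± 0.07, and moved by -0.59 ± 0.11 after that. KIF20A fell by 1.25 ± 0.06 at 6 h and its effect was 0.51 ± 0.11 higher at 24 h, closer to DMSO again. Of 44 replication genes, 9 had fallen and 3 risen at 6 h with a median of -0.10, and 36 had a lower effect at 24 h. With all arrays, 4 mitosis and 8 replication genes had a lower effect at 24 h and 0 a higher one. GINS2 and POLD1 stood at -0.27 ± 0.07 and -0.28 ± 0.10 at 6 h and moved by -1.82 ± 0.12 and -1.74 ± 0.15. RRM2 read 10.81, 10.90 and 10.67 at 6 h against 10.81 to 11.08 (median 10.93) in DMSO, not called at -0.14 ± 0.06, and moved by -1.83 ± 0.08. PIMREG, TRIP13, CCNE2, CCNE1, SPC25, TNFRSF8 and UNG moved by -2.24 ± 0.11, -2.22 ± 0.10, -2.19 ± 0.24, -2.17 ± 0.13, -1.99 ± 0.12, -1.86 ± 0.15 and -1.86 ± 0.13. Medians over all genes were 0.014 at 6 h and -0.0014 at 24 h, and -0.036 for the difference.

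**Figure D5:**
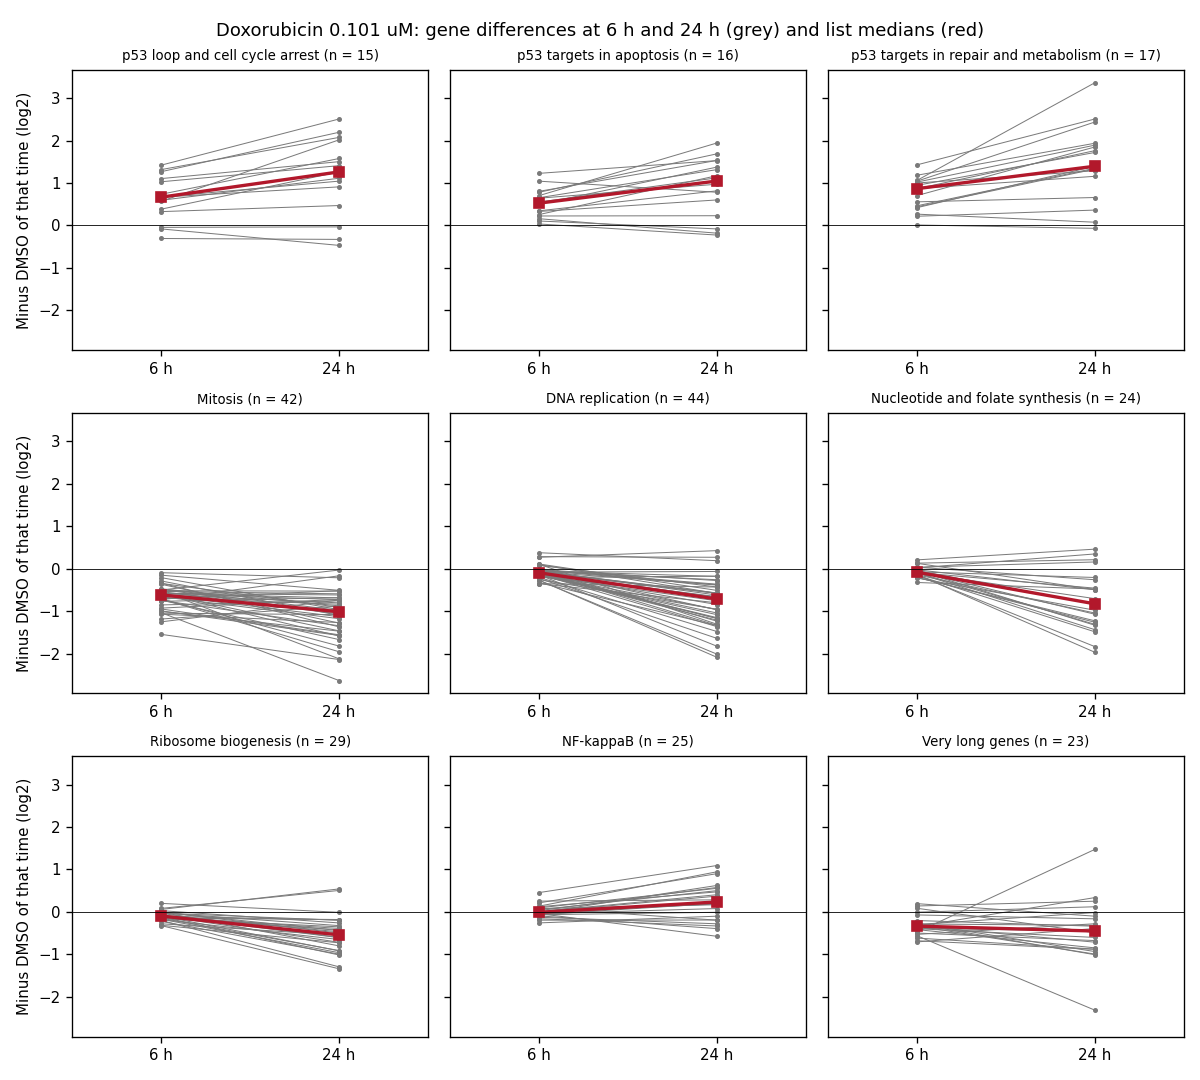
Log2 differences between doxorubicin 0.101 uM and the DMSO arrays of the same time, at 6 h and 24 h, for the genes of 9 lists (grey lines) with the list median in red. Mitosis stands at -0.62 at 6 h and -1.01 at 24 h, and DNA replication at -0.10 and -0.72. The 3 p53 lists shown are above 0 at both times.

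Etoposide, an epipodophyllotoxin that also traps topoisomerase II but does not slip between bases, was labelled at 0.811 and 0.812 uM. The concentrations differ from that of doxorubicin, so the values describe these exposures and not the compounds at matched doses. In a contrast that uses no DMSO array, doxorubicin was higher in 1150 genes (6.31%) and lower in 1790 (9.81%). This count rests on the model: with all arrays of 24 h, 53 genes were called, and with only these 2 treatments fitted, 4466. GDF15 read 6.66 to 7.50 over the 5 etoposide arrays and was 2.33 ± 0.16 higher with doxorubicin (adjusted p = 1.06e-18). PXDN, RASL11A, ARG2 and GAL, the neuropeptide galanin, read 4.70 to 4.98, 6.42 to 6.74, 6.05 to 6.65 and 4.09 to 4.70 with etoposide. Their differences were 2.07 ± 0.13, 1.89 ± 0.13, 1.66 ± 0.16 and 1.77 ± 0.15. LCE1F and TRIM67 followed with 2.04 ± 0.20 and 1.59 ± 0.17. POU2AF1, a B cell coactivator of octamer factors, read 5.58, 5.21 and 5.39 with doxorubicin, 3.67 to 3.93 with etoposide and 3.66 to 4.08 (median 3.84) in DMSO, so the etoposide arrays lay within the DMSO range and the doxorubicin arrays above it. The difference between the drugs was 1.58 ± 0.12. Lower with doxorubicin were POSTN by 1.75 ± 0.10, WWOX by 1.61 ± 0.10, GSAP by 1.60 ± 0.17, ST8SIA4 by 1.45 ± 0.14, P2RY8 by 1.41 ± 0.16, CCNE2 by 1.40 ± 0.19, ASB2 by 1.37 ± 0.16 and PIMREG by 1.35 ± 0.09. CDKN1A was 0.14 ± 0.05 higher with doxorubicin, PLK1 differed by 0.10 ± 0.09 and NECTIN4 by 0.26 ± 0.16, and the last 2 were not called. Of 42 mitosis genes, 20 were higher with doxorubicin and 3 lower. Of 44 replication genes, 3 were higher and 17 lower. With all arrays 1 mitosis gene was higher and 0 replication genes were called, and with only the 2 treatments fitted the counts were 19 and 4, and 4 and 18. Medians were 0.22 and -0.14, against 0.010 over all genes.

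Aclacinomycin A, an anthracycline whose sugar chain is longer and which inhibits topoisomerase II without trapping it on cut DNA, was at 0.105 uM, close to but not the same as the doxorubicin concentration. Against the same DMSO arrays limma called 0 genes for it, 0.0% (691, or 3.79%, at an unadjusted p under 0.05). GDF15, LCE1C, CDKN1A and PLK1 read 3.81, 3.62 and 3.68, then 7.87, 7.80 and 7.78, then 11.84, 11.90 and 11.92 and 9.73, 9.52 and 9.53. These values were inside the DMSO ranges given above, except 1 of PLK1 that lay just above. Both sets of differences share their DMSO arrays, and the compounds were not tested against each other. Etoposide, like the low concentration, was also read against these DMSO arrays where a DMSO range is given.

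Histone genes rose in part. Of 52 measured, 17 rose and 1 fell, H1-10, with a median of 0.19. H3C4 read 7.78, 7.89 and 7.98 against 6.11 to 6.54 (median 6.31), a rise of 1.57 ± 0.17, H2AC6 rose by 1.26 ± 0.16 and H2BC5 by 1.23 ± 0.07. Genes of the replication-dependent histones share near-identical sequences, so probe sets may read several of them. H2BC5 and H2BC21 were lower in medium than in DMSO, by 0.67 ± 0.08 and 0.76 ± 0.10. The fall of H1-10, 0.30 ± 0.06, was not called against medium, at -0.15. With all arrays, 8 histone genes rose and 0 fell.

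Of 32 immediate early and AP-1 genes, 24 rose and 3 fell, with a median of 0.65. KLF4, a growth-restraining factor, read 10.51, 10.46 and 10.44 against 8.05 to 8.75 (median 8.29), a rise of 2.11 ± 0.12. DUSP5, the phosphatase for nuclear ERK, rose by 2.01 ± 0.08, ATF3 by 1.84 ± 0.07, FOSL1 by 1.67 ± 0.15 and JUN by 1.54 ± 0.08. The fallers were SPRY2 at -0.95 ± 0.13, BATF3 at -0.67 ± 0.05 and DUSP6 at -0.42 ± 0.13. Medium lay below DMSO for KLF4 and DUSP5, by 1.21 ± 0.14 and 0.98 ± 0.10, and the count against medium was 24 and 3. DUSP6 was not called there, at -0.12. With all arrays, 12 rose and 1 fell.

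Interferon response genes counted 15 rises and 0 falls of 36 and a median of 0.18. TRIM22, which p53 also induces, read 12.16, 12.06 and 12.11 against 9.39 to 9.93 (median 9.72), a rise of 2.46 ± 0.08. PARP14, ISG20, IFIT3, ISG15 and IFIT2 rose by 1.92 ± 0.14, 1.85 ± 0.10, 1.44 ± 0.19, 1.33 ± 0.07 and 1.27 ± 0.21. Against medium the list counted 11 rises and 4 falls, and with all arrays 8 and 0. In the NF-kappaB list 16 of 25 rose and 4 fell, with a median of 0.23. OCI-Ly3 belongs to the activated B cell type of lymphoma, in which NF-kappaB signalling is active. Among the risers were TNFAIP2 at 1.09 ± 0.07 and the feedback genes CYLD, a deubiquitinase, at 0.95 ± 0.06 and TNFAIP3 (A20) at 0.56 ± 0.07. MALT1 and MYD88 fell by 0.39 ± 0.07 and 0.33 ± 0.08, and MALT1 was not called against medium, at -0.17. With all arrays, 3 of the list rose and 0 fell.

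Of 33 cytokine, chemokine and JAK-STAT genes, 16 rose and 3 fell, with a median of 0.20. CCL5 read 11.06, 10.91 and 10.97 against 9.30 to 9.95 (median 9.59), a rise of 1.38 ± 0.08, CCL22 rose by 1.26 ± 0.19, CCL3 by 0.93 ± 0.07, the receptor IL10RA by 1.10 ± 0.08 and IL6 by 0.92 ± 0.11. At 6 h IL6 had fallen by 0.47 ± 0.11. CCL3 in medium was 1.89 ± 0.08 below DMSO. Against medium IL6 was 0.09 and not called, and the list counted 14 rises and 6 falls. With all arrays it counted 3 and 0. In the checkpoint and costimulation list 10 of 22 rose and 2 fell, with a median of 0.26. TNFSF9, the ligand of 4-1BB, read 9.19, 9.11 and 8.90 against 7.08 to 7.49 (median 7.36), a rise of 1.73 ± 0.09. ULBP1, a ligand of the natural killer receptor NKG2D, rose by 1.31 ± 0.08, CD86 by 1.08 ± 0.07 and CD80 by 0.95 ± 0.09. CD47, the signal that keeps macrophages off, fell by 0.91 ± 0.06, from 10.54 to 10.83 (median 10.72) to 9.78, 9.72 and 9.83, and PVR by 0.62 ± 0.15. PVR was not called against medium, at -0.33. With all arrays, 6 of the list rose and 1 fell.

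Of 23 transcription factors of B and plasma cells, 6 rose and 8 fell, with a median of -0.13, where 15.9% of all genes rose and 19.9% fell. POU2AF1 rose by 1.54 ± 0.11 and ID3 by 0.82 ± 0.11, IRF4, the survival factor of this lymphoma type, by 0.10 ± 0.04 and PRDM1 by 0.20 ± 0.08. BCL6 differed by 0.08 ± 0.07 (adjusted p = 0.473) and was not called. TCF3 and ID2 fell by 0.36 ± 0.08 and 0.29 ± 0.07. Against medium ID3 and PRDM1 turned to -0.12 and -0.64, and ID3 was not called. With all arrays, 2 factors rose and 0 fell. In the receptor and surface list 7 of 34 rose and 6 fell, with a median of 0.03. These counts are near the shares over all genes (15.9% and 19.9%). With all arrays, 3 rose and 1 fell. After BLNK the largest were FCRLA at 2.24 ± 0.16 and CD40 at 1.16 ± 0.13, while the kinase SYK fell by 0.70 ± 0.07.

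MHC class II genes depended on the control. Against DMSO, 4 of 15 rose and 7 fell, with a median of -0.18. CIITA, the master coactivator, read 5.61, 5.37 and 5.33 against 6.04 to 7.30 (median 6.73) and fell by 1.23 ± 0.15. HLA-DMB fell by 1.04 ± 0.08 and HLA-DRA by 0.38 ± 0.05. HLA-DOA, CD74, HLA-DMA and HLA-DQA1 rose, at 0.76 ± 0.07, 0.24 ± 0.06, 0.21 ± 0.06 and 0.36 ± 0.05. CIITA read 9.37 and 9.15 in the medium arrays. With all arrays, 3 fell and 0 rose. Against medium, 14 fell and 0 rose, and the 4 risers turned to -0.31, -0.47, -0.51 and -0.74.

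Genes that handle the drug itself were checked. AKR1C1 and AKR1C3, aldo-keto reductases that reduce the doxorubicin ketone to an alcohol, read 8.18, 8.28 and 8.0 and 8.72, 8.82 and 8.68 with the drug. In DMSO they read 4.95 to 5.81 (median 5.27) and 6.57 to 7.16 (median 6.71), and the rises were 2.88 ± 0.15 and 1.92 ± 0.11. The carbonyl reductase CBR3 rose by 0.68 ± 0.06 and CBR1 fell by 0.32 ± 0.09. Of the pumps that export anthracyclines, ABCG2 fell by 1.47 ± 0.07, from 9.88 to 10.12 (median 9.98) to 8.59, 8.56 and 8.42. ABCB1 (P-glycoprotein) rose by 0.26 ± 0.10 (adjusted p = 0.0346), with arrays inside the DMSO range of 7.37 to 8.02 (median 7.59). The list as a whole counted 4 rises and 4 falls of 15 with a median of 0.04, and with all arrays 2 and 1. Over all genes, 15.9% rose and 19.9% fell, so a list of this size holds called genes in both directions without being set apart.

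MYC read 9.17, 9.28 and 9.30 with doxorubicin and 10.38 to 10.94 (median 10.66) in DMSO, a fall of 1.41 ± 0.08 (adjusted p = 2.56e-24). Its antagonists went both ways. MXD1 and MXD4 rose by 0.95 ± 0.12 and 0.73 ± 0.07, and MXD3, which is expressed in S phase, fell by 0.90 ± 0.13. MXI1 and MGA, which also oppose MYC, were among the called falls, and their values are not given here. In the MYC network 6 of 10 fell and 2 rose, with a median of -0.25, and with all arrays 1 and 0. Ribosome biogenesis, a process MYC drives, counted 24 falls and 2 rises of 29, with a median of -0.54, and with all arrays 5 and 0. NOP16, DKC1 and WDR12 fell by 1.34 ± 0.09, 1.30 ± 0.06 and 1.02 ± 0.07, and TAF1D rose by 0.54 ± 0.10. Glycolysis counted 17 falls and 1 rise of 22 and a median of -0.41 (with all arrays 4 and 0), with hexokinase HK2 at -1.61 ± 0.11 and PDK1 at -1.02 ± 0.14. Cholesterol and fatty acid synthesis counted 15 falls and 1 rise of 20 and a median of -0.50, and with all arrays 2 and 1. DHCR7, the last enzyme of cholesterol synthesis, fell by 1.42 ± 0.10 and the desaturase SCD by 0.84 ± 0.06, while LSS, lanosterol synthase, rose by 0.92 ± 0.08 from 9.20 to 9.59 (median 9.35) to 10.37, 10.29 and 10.28.

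Very long genes, whose transcription takes many hours and depends on topoisomerases, were listed as a group. Of 23 measured, 16 fell and 2 rose, with a median of -0.45. WWOX, an oxidoreductase gene that spans a common fragile site, read 6.44, 6.16 and 6.54 with doxorubicin and 8.47 to 9.08 (median 8.67) in DMSO, a fall of 2.32 ± 0.10 (adjusted p = 1.59e-31). At 0.03 uM it read 7.57, 7.74 and 7.64 and with etoposide 7.88 to 8.07, both between the groups. DIAPH3, TBC1D5, IMMP2L, SMYD3 and RAD51B fell by 1.01 ± 0.14, 0.99 ± 0.06, 0.93 ± 0.15, 0.88 ± 0.08 and 0.88 ± 0.18. The risers were MAD1L1, a spindle checkpoint gene, from 7.55 to 7.97 (median 7.77) to 9.32, 9.21 and 9.11 at 1.47 ± 0.09, and PARD3 at 0.34 ± 0.13. Between concentrations, 14 were lower and 1 higher at 0.101 uM, and at 0.03 uM 4 were below DMSO and 1 above. At 6 h 15 had already fallen and 0 risen. Against medium the count was 10 falls and 2 rises with a median of -0.24, and PARD3 was not called, at 0.12. With all arrays, 5 fell and 1 rose against DMSO, and 1 was lower and 0 higher between concentrations. With a gene's probe sets averaged, PARD3 turned to -0.041, and 8 of the 23 in place of 14 were lower at 0.101 than at 0.03 uM.

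Markers of other cell types were checked too. Lists of T and natural killer, monocyte and neutrophil, epithelial, fibroblast and endothelial, and erythroid and platelet markers held 5 called falls or rises outside KRT14. Mean levels of these lists were 4.41 to 5.39 with doxorubicin and 4.42 to 5.59 in DMSO. The calls were falls of CD3D by 0.45 ± 0.15, CD5 by 0.21 ± 0.08, COL1A1 by 0.85 ± 0.23 and COL3A1 by 0.50 ± 0.17, and a rise of ITGAM by 0.75 ± 0.15. Over all genes, 15.9% rose and 19.9% fell. With all arrays, the monocyte and neutrophil list kept 1 rise, and the other lists of this paragraph held 0 calls. CD5, which some B cell lymphomas express, was bright at 10.04 to 10.33 (median 10.16) in DMSO, and against medium it was 0.12 and not called.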

How the data were processed

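RNA of single wells was read on Affymetrix arrays, and the deposited table holds log2 expression values that the authors made with RMA, per the submitters' processing notes. The version of RMA and the genome build are not given in the sources used here. Of 49386 probe sets, 45259 carried 1 gene symbol in the platform annotation, 1327 several and 2800 none, and for each of 18239 genes the probe set brightest on average was used. Arrays with an upper quartile under 8 were left out, which kept 234 of 282, and 77 of 94 were kept at 24 h. Groups were read from the sample titles. Group means over all kept arrays of a time were fitted with limma 3.58.1 (lmFit, eBayes with a trend) in R 4.3.3, and p-values were adjusted by Benjamini-Hochberg. Tables and plots used Python 3.11.15, numpy 2.4.6, pandas 2.3.3 and matplotlib 3.10.9. The number of arrays limits the precision, and the median standard error was 0.1197.

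The effect at 24 h minus that at 6 h was a contrast in a joint fit of all kept 6 h and 24 h arrays. The genes named are the 20 largest rises and falls with arrays apart from DMSO, up to 6 per direction in each of 42 lists, 11 fixed genes, members of a list where a count is 5 or fewer, and the 8 largest differences per direction in the concentration, time and etoposide contrasts. CCNB1, CD22, CD79A, CD79B, CENPE, DDB2, DLGAP5, EPCAM, GMNN, HMMR, KIF20A, KRT5, LCE1A, MCM10, MKI67, MS4A1, NEK2, ORC1, PAX5, PLK3, SPRR2A, SPRR2E, TICRR, TNFRSF10D, TPX2, XPC and ZMAT3 were chosen after their values were seen. The comparison and the lists were chosen with earlier results of these data known. On simulated data for doxorubicin against DMSO, over 18239 genes, 65.67% of 67 genes changed by 0.5 were found. The share was 97.01% of 67 genes changed by 1 and 100% of 66 changed by 2. Of 18039 unchanged genes, 8 were called. The simulated noise was normal, independent between arrays and of the same spread per gene in every group, and few genes were changed. The real groups differed in spread and many genes were called, so these shares are not error rates of the reported comparison. Same-numbered doxorubicin and DMSO arrays did not deviate together (correlations of -0.016, 0.081 and -0.119), so the numbers were not taken as pairs. Alternatives were other arrays kept, the groups fitted alone, quantile normalization, a filter on dim genes, the mean of probe sets, no variance trend, a replicate block and each replicate left out. Leaving out DMSO replicates 5 and 6, and medium as the control, were added after seeing the data. Promoters, matched by gene ID for 14484 of 18239 genes, are RefSeq sequences of GRCh38.p14. No coordinates are given for probe sets.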

Additional observations from a re-analysis of the deposited data

Results flagged for a closer look

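The effect of doxorubicin 0.101 uM differed between 24 h and 6 h in 4475 genes by limma's interaction contrast. The largest differences upward (log2, 24 h minus 6 h) were GDF15 at 5.32, LCE1F at 4.19, LCE1C at 3.733, SPRR2D at 3.303, BLNK at 3.268, TRIM67 at 2.913, LCE1B at 2.712 and SULF2 at 2.688. Those downward were PIMREG at -2.242, TRIP13 at -2.216, CCNE2 at -2.192, CCNE1 at -2.168, SPC25 at -1.993, TNFRSF8 at -1.858, UNG at -1.856 and RRM2 at -1.833.

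In 14 of 243 genes looked at, 1 of the 7 DMSO arrays stood apart from the others by Dixon's test, and chance alone gives about 1 in 20 groups. Replicate 5 was the array in 6 of them, the highest for CCL22 at 7.08, FHL2 at 6.17 and GDF15 at 4.71, and the lowest for GINS4 at 9.21, MXD1 at 6.89 and PARP14 at 5.33. Replicate 6 was highest for KRT5 at 5.29 and lowest for IFIT2 at 4.09. Replicate 3 was highest for GPX1 at 12.92 and lowest for IRF4 at 12.97. Replicate 2 was highest for ITGAM at 5.41 and lowest for LCE1D at 6.50. Replicate 8 was lowest for HMGB1 at 11.08 and highest for TRIM67 at 6.36. Replicates 5 and 6 had the highest levels of the bioB hybridisation control among the kept DMSO arrays. They also had the largest ACTB 3' to 5' differences of these arrays, 0.78 and 0.63, where the next was 0.37 in replicate 2.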

How the results depend on the processing

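With the low-signal arrays of each time included, the calls fell to 1107 against DMSO, 51 between concentrations, 498 between times and 53 against etoposide, where 6514, 2960, 4475 and 2940 had been called. The median standard error against DMSO was 0.2761 in that fit and 0.1197 in the reported one. Fitted on their own arrays alone, doxorubicin and etoposide differed in 4466 genes. Leaving out single replicates gave 5757 to 6596, 2280 to 2632, 4025 to 4505 and 2174 to 2791 calls. With a replicate block there were 5875, 3152, 4480 and 3175 calls, and no count moved by over 1.5 times. The numbers did not pair the arrays. Quantile normalization, the filter on dim genes, the mean of probe sets, the variance trend and the leaving out of DMSO replicates 5 and 6 also kept these counts within 1.5 times. Additional removal of arrays by the ACTB difference left out none of the arrays used.

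Among 243 genes named, 82 lost their call with all arrays included and 16 with medium as the control. Under each other setting 9 or fewer did. The filter on dim genes left 23 of them untested. With the mean of all probe sets PARD3 turned to -0.041. With medium as the control CD5 turned to 0.117, CD74 to -0.467, HLA-DMA to -0.507, HLA-DOA to -0.308, HLA-DQA1 to -0.742, ID3 to -0.115, LIG1 to -0.040 and PRDM1 to -0.635. The cause was not tested. Probe sets near the array floor, such as those of GDF15 and POU2AF1 in DMSO, can understate folds.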

Other observations

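The gene groups not covered above are read beside the shares over all genes, 15.9% up and 19.9% down. Lysosome and autophagy genes rose in 16 of 25, with 2 falls (4 and 0 with all arrays). DRAM1, a p53-driven lysosomal membrane protein, read 9.85, 9.92 and 9.71 against 8.23 to 8.66 (median 8.48) in DMSO, a rise of 1.35 ± 0.10. The autophagy receptor SQSTM1 rose by 0.78 ± 0.05 and TFEB, the regulator of lysosome genes, by 0.66 ± 0.11. The endoplasmic reticulum list counted 13 falls and 2 rises of 21, with PDIA4 at -0.55 ± 0.08 and EDEM1 at 0.45 ± 0.06. Against medium it counted 7 falls and 5 rises, with EDEM1 at 0.28, and with all arrays 3 and 0. In the amino acid stress list 9 of 20 rose and 5 fell, and with all arrays 1 and 2. DDIT3 (CHOP) rose by 1.35 ± 0.14, while PHGDH, the first enzyme of serine synthesis, fell by 1.50 ± 0.09, the cystine carrier SLC7A11 by 1.0 ± 0.14 and TRIB3 by 0.73 ± 0.10.

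Of 24 genes tied to senescence and matrix, 6 rose and 5 fell, near the shares over all genes. Against medium 2 rose and 7 fell and the median turned from 0.06 to -0.04, and with all arrays 2 rose and 2 fell. PLAU, urokinase, read 10.16, 10.22 and 10.05 with doxorubicin, 7.80 to 8.44 (median 8.04) in DMSO and 9.97 and 10.04 in medium. Its rise against DMSO was 2.06 ± 0.09 and its difference from medium 0.14, which was not called. LMNB1, a lamin that falls in senescent cells, read 6.94, 7.0 and 7.08 against 8.02 to 9.09 (median 8.54), a fall of 1.42 ± 0.17, and HMGB1 fell by 0.97 ± 0.08. Oxidative stress genes counted 3 rises and 9 falls of 19, and with all arrays 1 and 2, with GPX1 at 0.71 ± 0.04 and NQO1 at -0.40 ± 0.07. Heat shock genes counted 6 and 7 of 17, tubulin genes 4 and 5 of 18, actin and myosin genes 9 and 6 of 23, and respiratory chain genes 4 and 8 of 21, with medians between -0.03 and 0.07. With all arrays the heat shock and respiratory chain lists held 0 called genes, and the others 3 and 3, and 1 and 0. Against medium 0 respiratory chain genes rose and 11 fell.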
